A study of Saccharomyces cerevisiae with 8 samples.

Results

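A set of 10 genes of uracil synthesis, uracil uptake and their regulation was followed in budding yeast, Saccharomyces cerevisiae. The yeast either expressed Kir2.1, a potassium channel of mammals, or held a vector control plasmid. The genes were chosen by name: URA2, URA4, URA1, URA5, URA10, URA3 and URA6 for synthesis, FUR4 and FUR1 for uptake and salvage, and PPR1 for regulation. All 10 were found among the 5449 genes the array measured, each by 1 probe set that is not marked as shared with another transcript. There were 4 arrays from cultures with pRS416TEF-Kir2.1-HA and 4 from cultures with pRSGPD426. Both groups grew at 26 °C in selective medium and were taken in the middle of exponential growth. The submitters describe the replicates as biological. They mark the vector control arrays, and none of the Kir2.1 arrays, as a re-analysis, so that mark and the plasmid cannot be told apart. By their names the plasmids also differ in backbone and promoter (TEF against GPD). An effect of Kir2.1 cannot be told apart from these.

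The pyrimidine ring is built step by step from glutamine, bicarbonate and aspartate, and the product UMP feeds RNA, DNA and sugar nucleotides. Yeast can bypass the synthesis by taking up uracil and joining it to a ribose phosphate. Ppr1, a zinc cluster transcription factor, senses intermediates of the pathway and activates several of the later synthesis genes, URA3 among them. URA3 is also the selection marker of many yeast plasmids: a host without a working copy grows in medium lacking uracil only while it keeps the plasmid. As background, plasmids of the pRS416 type hold a centromere and stay at low copy, whereas those of the pRS426 type hold the origin of the native yeast plasmid circle and reach high copy. Both types carry URA3. The labels give neither the copy number nor the host's own URA3 allele, so transcripts from the plasmid and from the chromosome cannot be told apart here.

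Each level is given in log2 units above or below the array's median gene, on a log scale restored from the deposited scores. A positive difference means a higher level in Kir2.1 yeast. A probe set responds in its own way to its transcript, so a level is compared between arrays and not between genes. A gene was counted as above background where it exceeded 95% of the S. pombe probe sets on the same array, as 84.9% to 88.6% of the genes did on each array. Of 4 alpha mating-type markers, 4 were above background on every array, against 1 or 2 of 5 markers of the a type. Cultures of the same group were not alike. The mean level of 14 iron uptake and mobilization genes was 2.27 on Kir2.1 replicate 1, 2.40 on Kir2.1 replicate 3 and 1.97 on vector control replicate 1. It lay between -0.80 and -0.13 on the other 5 arrays. Over all genes, deviations from the group mean on vector control replicate 1 correlated with those on Kir2.1 replicate 1 (0.81) and replicate 3 (0.81). These 3 arrays thus stood apart over the whole array and not only in the uracil genes. The share of all genes with these 3 arrays lowest or highest was not counted. The part of these 3 arrays in a result was not tested beyond the values given below without them.

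None of the 10 genes differed between Kir2.1 and vector control yeast by the test. In limma with Benjamini-Hochberg adjustment over all genes, 0 of 10 were called, as were 0 of all 5449 genes (0.00%), and their smallest adjusted p was 0.697. At an unadjusted p under 0.05 there were also 0 of 10, where 8.35% of all genes passed. The unmoderated test also called 0 of 10. With array weights 2 of 10 were called, URA10 and URA6, where 31.8% of all genes were called. The weights were 1.84, 0.231, 0.861 and 0.267 for Kir2.1 replicates 1 to 4, and 0.372, 3.13, 2.09 and 4.20 for vector control replicates 1 to 4. They thus favour the Kir2.1 arrays with high iron genes and the vector control arrays without. How far the iron genes' state enters calls made with array weights was not tested. The 4 Kir2.1 values and the 4 vector control values overlapped for all 10 genes, while 6.59% of all genes had groups that did not overlap. The mean was higher in Kir2.1 yeast for 5 genes and lower for 5, while 58.7% of all genes had a higher mean. Their differences ran from -0.17 to 0.17 with a median of 0.04, beside a median of 0.03 over all genes. The 95% interval of each of the 10 differences lay within 2-fold in either direction, as did that of 97.4% of all genes.

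**Figure D1:**
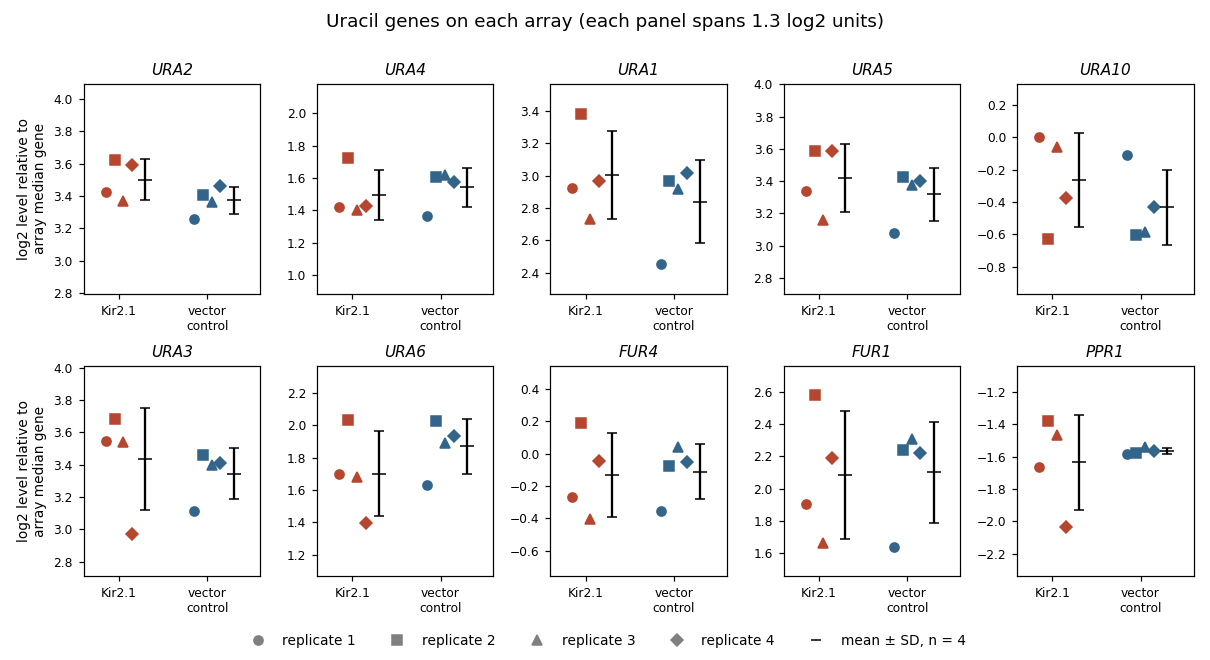
Level of each of the 10 uracil genes on each array, in log2 units relative to the array's median gene. Points are arrays, with Kir2.1 on the left and vector control on the right of each panel, marker shapes give the replicate number, and bars show the mean and SD of 4 arrays. The groups overlap in every panel, and vector control replicate 1 lies below the other vector control arrays in every panel but that of URA10.

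URA3 (YEL021W), the plasmid marker and the gene of orotidine phosphate decarboxylase, which makes UMP, was not called between Kir2.1 and vector control yeast. Its level was 3.54, 3.68, 3.54 and 2.97 in Kir2.1 replicates 1 to 4, against 3.11, 3.46, 3.40 and 3.41 in vector control replicates 1 to 4. On 3 of 4 arrays, Kir2.1 levels lay above those of all vector control arrays, and the remaining one, Kir2.1 replicate 4, lay below all of them. The same arrays in the deposited scores read 3.69, 3.85, 3.66 and 2.28 for Kir2.1 and 2.91, 3.63, 3.63 and 3.48 for the vector control. URA3 averaged 3.43 ± 0.31 in Kir2.1 yeast and 3.34 ± 0.16 in vector control yeast (SD, n = 4 each), a difference of 0.09 (SE 0.16, limma adjusted p = 0.852). As a ratio this was 1.06-fold, with a 95% interval from 0.832-fold to 1.36-fold. An exact two-sided permutation test of the 8 values gave p = 0.600, where 4 against 4 arrays cannot go below 0.0286.

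The URA3 difference depended on single arrays. Without Kir2.1 replicate 4 it was 0.24 (limma unadjusted p = 0.0371, adjusted p = 0.521), where 497 of all 5449 genes had an unadjusted p under 0.05. Without Kir2.1 replicate 2 it was 0.0070, and without vector control replicate 1 it was 0.01. Kir2.1 replicate 4 was the lowest array for URA3, so leaving it out raises the difference by construction. Kir2.1 replicate 2 was the highest Kir2.1 array and vector control replicate 1 the lowest of its group, so leaving out either lowers it. Without the 3 arrays with high iron genes the difference was -0.10 (limma adjusted p = 0.873), and after quantile normalization -0.03 (adjusted p = 0.965). None of these settings called the gene.

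The neighbours of URA3 on its chromosome were read beside it. GEA2 (YEL022W), a gene of vesicle traffic, had a level of -0.42, -0.56, -0.42 and -0.54 in Kir2.1 replicates 1 to 4, against -0.32, -0.29, -0.40 and -0.39 in the vector control. All 4 Kir2.1 values lay below all 4 vector control values, with a difference of -0.13 (SE 0.06, limma adjusted p = 0.609). Over all genes, 1.54% were separated in this direction. TIM9 (YEL020W-A), a chaperone gene of mitochondrial import, differed by -0.09 (SE 0.23, limma adjusted p = 0.899). With array weights, TIM9 was called at -0.48 (limma adjusted p = 0.0359), where 31.8% of all genes were called. Its level was 1.04, 1.74, 0.94 and 1.81 in Kir2.1 replicates 1 to 4, against 1.05, 1.55, 1.58 and 1.72 in the vector control. The 3 arrays with high iron genes were the lowest, and without them TIM9 differed by 0.16.

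Genes whose promoter or terminator expression plasmids hold, and genes used as selection markers, gave no call with all arrays weighted equally. Each level here is read from the gene's transcript and not from a promoter. The difference was 0.19 for TDH3 (SE 0.05, limma adjusted p = 0.551), the source of the GPD promoter, and 0.18 for TEF2 (SE 0.06, adjusted p = 0.551), whose probe set is a shared one. Both had groups that did not overlap. After quantile normalization both differed by 0. TDH3 held the highest value on every array, and TEF2 ranked near the top (mean percentile 99.97). CYC1, whose terminator many expression plasmids hold, differed by -0.98 (SE 0.70, limma adjusted p = 0.711) and by 0.04 without the 3 arrays with high iron genes. Among genes that serve as markers on other plasmids, LEU2 (leucine synthesis) differed by 0.08 (SE 0.08), HIS3 (histidine synthesis) by -0.02 (SE 0.12) and ADE2 (adenine synthesis) by 0.0025 (SE 0.13). LYS2 (lysine synthesis) differed by 0.30 (SE 0.29) and MET17 (sulfur assimilation) by 0.20 (SE 0.05). The limma adjusted p of these 5 ran from 0.551 to 0.993. MET17 was the one of the 5 whose groups did not overlap, with levels of 4.19 to 4.26 in Kir2.1 yeast and 3.94 to 4.09 in vector control yeast, where 5.05% of all genes were separated in this direction. Its difference was 0.05 after quantile normalization and 0.07 with no centring. With array weights, where 31.8% of all genes were called, CYC1 was called at -2.11, LYS2 at 0.84, TDH3 at 0.16 and MET17 at 0.17 (limma adjusted p from 0.0192 to 0.0412). TEF1 and TRP1 were not analysed here.

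The first enzymes of the pathway had small differences. URA2 (YJL130C) encodes the large protein that makes carbamoyl phosphate and joins it to aspartate, and UTP inhibits it. Its level was 3.42, 3.62, 3.37 and 3.59 in Kir2.1 replicates 1 to 4, against 3.26, 3.41, 3.36 and 3.46 in the vector control. Kir2.1 replicates 2 and 4 lay above every vector control array, and replicates 1 and 3 within their range. The difference was 0.13 (SE 0.08, limma adjusted p = 0.697), the smallest p among the 10 genes. It was 0.20 without the 3 arrays with high iron genes (limma unadjusted p = 0.0211, adjusted p = 0.633), 0.03 after quantile normalization and -0.0010 with no centring. Without those 3 arrays, 412 of all 5449 genes had an unadjusted p under 0.05. Kir2.1 replicates 1 and 3 were the lowest Kir2.1 arrays for URA2, so leaving them out raises its difference by construction. Leaving out vector control replicate 1, the lowest of its group, lowers it. URA4 (YLR420W), the dihydroorotase gene, stood at 1.42, 1.73, 1.40 and 1.43 in Kir2.1 yeast, against 1.36, 1.61, 1.62 and 1.58 in the vector control. Kir2.1 replicate 2 was the highest array, and the 3 arrays with high iron genes were the lowest, with vector control replicate 1 at the bottom. Kir2.1 replicate 4, without high iron genes, was hardly above them (1.426, against 1.422 on Kir2.1 replicate 1), so URA4 did not separate these arrays clearly. The difference was -0.05 (SE 0.09, limma adjusted p = 0.865). It was -0.12 without Kir2.1 replicate 2, -0.11 without vector control replicate 1 and -0.18 without both (limma unadjusted p = 0.0113, adjusted p = 0.0724). Without both, 1726 of all 5449 genes had an unadjusted p under 0.05. Leaving out the highest Kir2.1 array and the lowest vector control array lowers the difference by construction.

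URA1 (YKL216W) encodes dihydroorotate dehydrogenase, which in this yeast is a cytosolic enzyme that passes electrons to fumarate. Its level was 2.93, 3.38, 2.73 and 2.97 in Kir2.1 replicates 1 to 4, against 2.46, 2.97, 2.92 and 3.02 in the vector control. The highest and lowest arrays, Kir2.1 replicate 2 and vector control replicate 1, were 0.92 apart, while the group means differed by 0.16 (SE 0.17, limma adjusted p = 0.764). With both of these arrays left out the difference was -0.09 (limma adjusted p = 0.464).

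Orotate phosphoribosyltransferase has a major form, encoded by URA5, and a minor one, encoded by URA10, and their transcripts were highest on different arrays. URA5 (YML106W) had levels of 3.34, 3.59, 3.16 and 3.59 in Kir2.1 replicates 1 to 4, against 3.08, 3.42, 3.37 and 3.40 in the vector control. URA10 (YMR271C) had levels of 0.00, -0.63, -0.06 and -0.38 in Kir2.1 replicates 1 to 4, against -0.11, -0.61, -0.59 and -0.43 in the vector control. The 3 arrays highest for URA10, Kir2.1 replicates 1 and 3 and vector control replicate 1, were the 3 lowest for URA5 and the 3 with high iron genes. The group differences were 0.10 for URA5 (SE 0.12, limma adjusted p = 0.789) and 0.17 for URA10 (SE 0.16, adjusted p = 0.757). Without those 3 arrays the difference was 0.19 for URA5 (limma unadjusted p = 0.0186, adjusted p = 0.633) and 0.04 for URA10 (adjusted p = 0.896). In that setting 412 of all 5449 genes had an unadjusted p under 0.05. Kir2.1 replicates 1 and 3 were the lowest Kir2.1 arrays for URA5, so leaving them out raises its difference by construction. Leaving out vector control replicate 1, the lowest of its group, lowers it. Single omissions moved URA5 between 0.02, without vector control replicate 1, and 0.19, without Kir2.1 replicate 3. Array weights were 1.84 and 0.861 for Kir2.1 replicates 1 and 3, against 0.231 and 0.267 for replicates 2 and 4. Vector control replicate 1 had a weight of 0.372, the lowest of its group. With these weights the URA10 difference was 0.42 and called (limma adjusted p = 0.0244).

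URA6 (YKL024C), the UMP kinase gene, had the lowest difference of the 10 genes. Its level was 1.70, 2.04, 1.68 and 1.40 in Kir2.1 replicates 1 to 4, against 1.63, 2.03, 1.89 and 1.93 in the vector control. Kir2.1 replicate 4 was the lowest array here as for URA3, followed by the 3 arrays with high iron genes. The difference was -0.17 (SE 0.14, limma adjusted p = 0.721), and -0.25 with array weights, where it was called (adjusted p = 0.0450). It was -0.07 without Kir2.1 replicate 4 and -0.28 without Kir2.1 replicate 2 (limma unadjusted p = 0.0434, adjusted p = 0.237). With replicate 2 left out, 1083 of all 5449 genes had an unadjusted p under 0.05. Without Kir2.1 replicate 2 and vector control replicate 1 the URA6 difference was -0.36 (limma unadjusted p = 0.0080, adjusted p = 0.0640). In that setting 1726 of all 5449 genes had an unadjusted p under 0.05. Those arrays were the highest Kir2.1 and the lowest vector control array for URA6, so leaving them out lowers its difference by construction.

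Uracil uptake and salvage showed wide spread within groups and group means that nearly coincided. FUR4 (YBR021W), the uracil permease gene, had levels of -0.27, 0.19, -0.40 and -0.04 in Kir2.1 replicates 1 to 4, against -0.36, -0.08, 0.04 and -0.05 in the vector control. FUR1 (YHR128W), whose enzyme turns uracil into UMP, had levels of 1.91, 2.58, 1.66 and 2.19 in Kir2.1 replicates 1 to 4, against 1.64, 2.24, 2.31 and 2.22 in the vector control. For both genes the 3 lowest arrays were Kir2.1 replicates 1 and 3 and vector control replicate 1, the arrays with high iron genes. How many of all genes share this order was not counted. FUR4 differed by -0.02 (SE 0.14, limma adjusted p = 0.964) and FUR1 by -0.02 (SE 0.22, adjusted p = 0.982). Without those 3 arrays the differences were 0.10 for FUR4 (limma adjusted p = 0.726) and 0.13 for FUR1 (adjusted p = 0.739).

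PPR1 (YLR014C), the regulator gene, was measured close to the background. Its level was -1.67, -1.38, -1.46 and -2.04 in Kir2.1 replicates 1 to 4, against -1.58, -1.58, -1.54 and -1.56 in the vector control. It was above the background on 3 of 4 Kir2.1 arrays and on 4 of 4 vector control arrays, and on those by 0.09 to 0.35. Kir2.1 replicate 4 lay 0.32 under the background level (-0.32), so only an upper bound of PPR1 is known there. The difference was -0.07 (SE 0.13, limma adjusted p = 0.858), and 0.06 without Kir2.1 replicate 4 (adjusted p = 0.752).

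**Figure D2:**
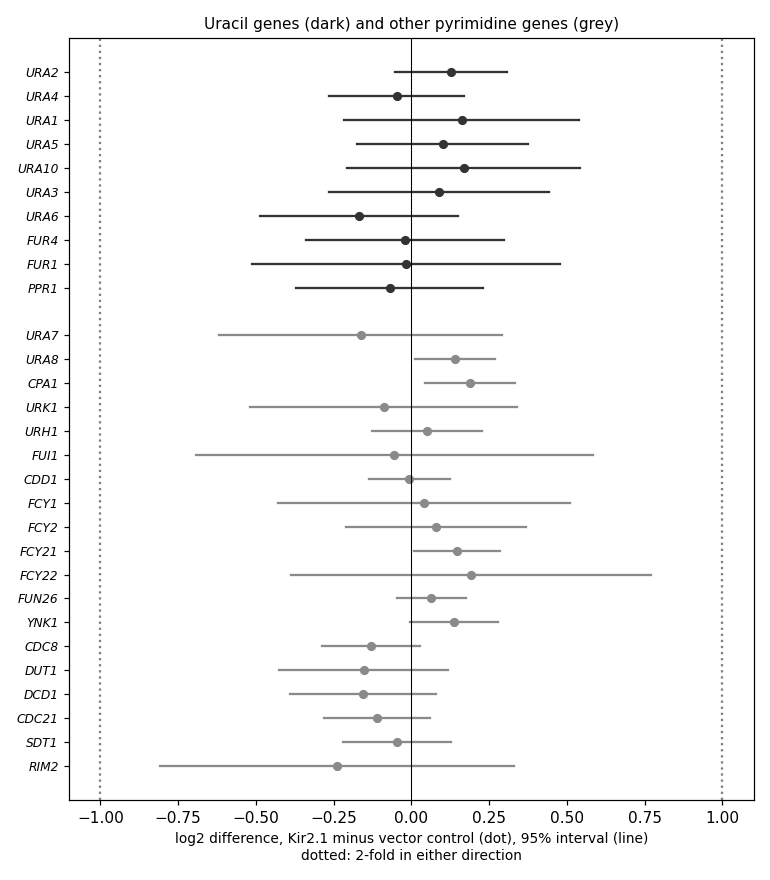
Difference of each gene between Kir2.1 and vector control yeast in log2 units (dots) with its 95% interval (lines), for the 10 uracil genes in dark and 19 other pyrimidine genes in grey. Dotted lines mark 2-fold in either direction. All intervals lie between them, and those of CPA1, URA8 and FCY21 do not reach 0. With no centring these differences were 0.06 for CPA1, 0.01 for URA8 and 0.02 for FCY21.

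The uracil genes varied more between replicates than most genes. Their within-group SD, pooled over Kir2.1 and vector control, had a median of 0.22, against 0.13 over all genes, and 9 of 10 were above the median of all genes. FUR1 varied most (0.36, percentile 92.7), followed by URA1 (0.27, percentile 84.7), URA10 (0.26, percentile 84.3) and URA3 (0.25, percentile 82.0). URA2 varied least (0.11, percentile 35.9). The value of PPR1 includes the array on which it was below background. This ordering is a description, with no test.

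**Figure D3:**
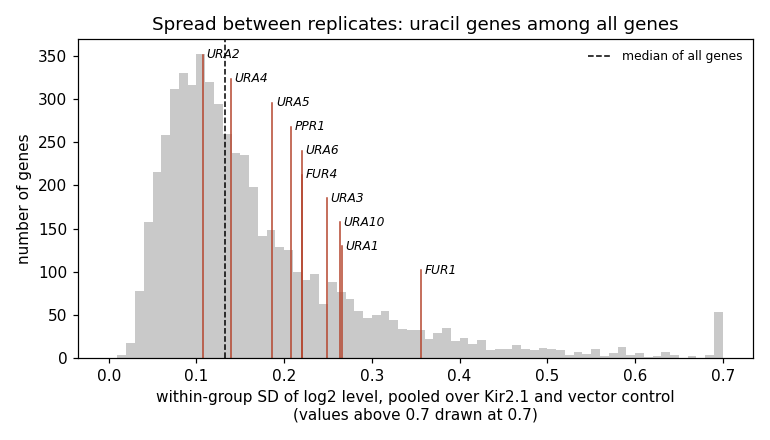
Within-group SD of the log2 level over the 4 Kir2.1 and 4 vector control arrays, pooled. Grey bars count all genes, red lines mark the 10 uracil genes and the dashed line marks the median of all genes, 0.13. Only URA2, at 0.11, lies left of it.

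The same arrays were often the highest or the lowest. Kir2.1 replicate 2 was the highest of the 8 arrays for 9 of the 10 genes, where it was highest for 19.8% of all genes, and it was the lowest array for URA10. Within the vector control, replicate 1 was lowest for 9 of 10 genes and highest for URA10, where it was lowest for 41.2% of all genes. The first count depended on the scaling: Kir2.1 replicate 2 was highest for 6 of the 10 genes after quantile normalization (16.5% of all genes) and for 3 with no centring (2.57% of all genes). The second count was 9 after quantile normalization and 8 with no centring. URA3 and URA6 had a different lowest array, Kir2.1 replicate 4, at -0.42 and -0.39 from their own means over the 8 arrays, and PPR1 was below background on it. On that array URA5 lay at 0.22 and URA2 at 0.15 from theirs.

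**Figure D4:**
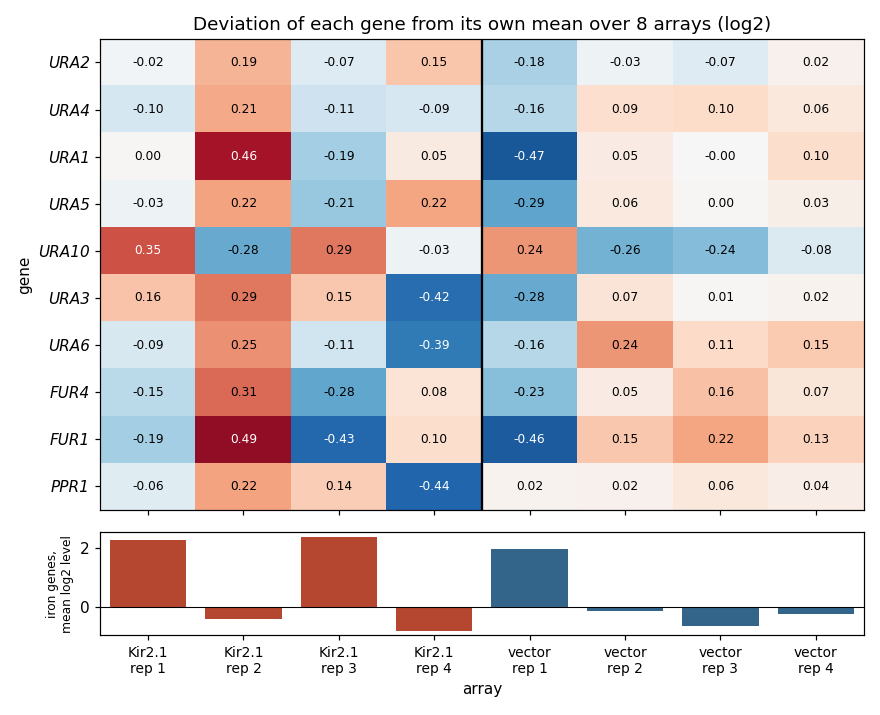
Deviation of each uracil gene on each array from that gene's mean over the 8 arrays, in log2 units (red above, blue below), with Kir2.1 arrays left of the black line and vector control arrays right of it. Bars below give the mean log2 level of 14 iron genes. Kir2.1 replicate 2 is red and vector control replicate 1 blue for most genes, and URA10 shows the opposite signs on both. PPR1 was below background on Kir2.1 replicate 4, so its deviation there is an upper bound.

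The genes whose pattern over the 8 arrays was most like that of URA3 were sought among 1085 other genes above background on all arrays and with an SD of at least 0.21. The closest by Pearson correlation were VAC17 (0.92), a gene of vacuole inheritance, SRD1 (0.83), the amino acid permease gene TAT1 (0.81), the tRNA methyltransferase gene TRM44 (0.81) and EFM6 (0.80), a methyltransferase gene for an elongation factor. By Spearman correlation VAC17 stood at 0.57, SRD1 at 0.69, TAT1 and TRM44 at 0.60 and EFM6 at 0.86, so the order depends on the measure. These values describe 8 arrays that share a scaling and include the 3 with high iron genes. Of the uracil genes, URA1, URA10, URA6 and FUR1 met these conditions, and none of them was among the 5.

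The other genes of pyrimidine metabolism, a list of 20 of which 19 were measured, also gave 0 calls over all genes with the arrays weighted equally. With array weights 8 of the 19 were called, where 31.8% of all genes were. They included CPA1 (0.25), URA8 (0.14), URA7 (-0.47) and FUI1 (-0.49), with limma adjusted p from 0.0192 to 0.0473. Without Kir2.1 replicate 2 and vector control replicate 1, 4 of the 19 were called, where 9.32% of all genes were, as against 0 of the 10 uracil genes. They included URA7 (-0.47, limma adjusted p = 0.0425) and URK1 (-0.38, adjusted p = 0.0403). For both genes the arrays left out were the highest Kir2.1 and the lowest vector control array, which lowers the difference by construction. Means were higher in Kir2.1 yeast for 9 of the 19 and lower for 10, with a median difference of -0.0068, beside 0.03 over all genes. At an unadjusted p under 0.05, 3 were higher and 0 lower, where 6.37% of all genes were higher and 1.98% lower. In 4 of them the Kir2.1 arrays were all higher than the vector control arrays, as in 5.05% of all genes. That split depended on the scaling, since with no centring 0 of the 19 were higher and 5 lower at that p. Among all genes 347 were higher and 108 lower at that p, against 95 and 182 after quantile normalization, 138 and 239 with centring on the 75th percentile, and 6 and 999 with no centring.

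CPA1 (YOR303W), a subunit gene of the second carbamoyl phosphate synthetase of yeast, which serves arginine, had levels of 3.47, 3.33, 3.38 and 3.34 in Kir2.1 replicates 1 to 4, against 3.30, 3.17, 3.10 and 3.20 in the vector control. The groups did not overlap, and the difference was 0.19 (SE 0.06, limma unadjusted p = 0.0173, adjusted p = 0.551). It was 0.07 after quantile normalization and 0.06 with no centring. URA8 (YJR103W), one of the CTP synthase genes, had levels of 0.89, 1.01, 0.97 and 0.92 in Kir2.1 yeast, against 0.89, 0.75, 0.79 and 0.79 in the vector control. It differed by 0.14 (SE 0.06, limma adjusted p = 0.576), and by 0.01 with no centring. URA7 (YBL039C), the other CTP synthase gene, had levels of 1.19, 1.97, 1.29 and 1.54 in Kir2.1 yeast, against 1.22, 1.73, 1.92 and 1.78 in the vector control. It differed by -0.16 (SE 0.20, limma adjusted p = 0.793) and was lowest on the 3 arrays with high iron genes.

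Of the transport and salvage genes, FCY21 (YER060W), a relative of the cytosine permease gene, differed by 0.15 (SE 0.06, limma adjusted p = 0.587) with groups that did not overlap. With no centring FCY21 differed by 0.02. FUN26, a nucleoside transporter gene named after its values were seen, differed by 0.06 (SE 0.05, limma adjusted p = 0.711), also without overlap, and by 0.03 after quantile normalization. FUI1 (YBL042C), the uridine permease gene, had levels of 1.52, 2.59, 1.52 and 2.06 in Kir2.1 replicates 1 to 4, against 1.37, 2.15, 2.26 and 2.13 in the vector control. Its order over the arrays was like that of FUR1, with the 3 arrays with high iron genes lowest and Kir2.1 replicate 2 highest. It differed by -0.05 (SE 0.28, limma adjusted p = 0.951). URK1 (uridine kinase) differed by -0.09 (SE 0.19), URH1 (uridine hydrolase) by 0.05 (SE 0.08) and FCY2 (purine and cytosine permease) by 0.08 (SE 0.13), with limma adjusted p from 0.836 to 0.874.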

How the data were processed

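Total RNA was labelled with biotin as cRNA, per the labels' protocols, and hybridised to arrays carrying probe sets for S. cerevisiae and S. pombe. The deposited values are a standardized score per probe set, since each array has mean 0 and standard deviation 1 over 10715 probe sets, on what looks like a linear intensity. How the authors summarized and scaled the probes is not given in the sources used here. A log2 scale was rebuilt with its zero 0.005 array standard deviations below each array's lowest score, and each array was centred on its median gene. Before centring, array medians averaged 0.13 lower in Kir2.1 arrays (-0.13, Kir2.1 minus vector control). The platform annotation, updated through the RefSeq table of assembly R64, gave 5449 genes. The brightest probe set stood for each of 47 genes with several, and 118 genes were read from shared probe sets. No coordinates or sequences were used.

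The comparison used limma 3.58.1 (R 4.3.3), with lmFit, eBayes and a two-sided test of the group term over all genes, and calls were made at a Benjamini-Hochberg adjusted p under 0.05. The fit was tested on simulated data. The precision is limited by the number of arrays. Named were the 10 members, 8 other pyrimidine genes fixed by name, list members with an unadjusted p under 0.05, FUN26 (chosen after its values were seen), plasmid-related and marker genes, the neighbours of URA3 and its 5 most similar genes. The members and lists were chosen with earlier results of these data known. Alternatives covered the zero, centring, quantile normalization, untransformed scores, a filter on dim genes, probe set averaging, array weights, an unmoderated test, a replicate block and omitted arrays.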

Additional observations from a re-analysis of the deposited data

Results flagged for a closer look

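In 9 of 58 sets of 4 arrays from the named genes, 1 array lay far from the other 3. The rule flags about 1 in 20 independent sets by chance, but these sets share the same arrays. Over all genes, 10.96% were flagged in the vector control and 5.34% in Kir2.1 yeast. On Kir2.1 replicate 2 the flagged level was URA4 at 1.73. The other 8 were on vector control replicate 1. They were URA4 at 1.36, URA5 at 3.08, FUR1 at 1.64, FUI1 at 1.37, FCY2 at 2.41 and CYC1 at 2.09, each below the other vector control arrays, and LYS2 at 3.22 and ADE2 at 0.0055, both above them. Over all genes, 9.34% had vector control replicate 1 apart from the other vector control arrays in this way. It is the vector control array with high iron genes.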

How the results depend on the processing

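Across 21 alternatives the 10 uracil genes gave 210 differences, of which 2 were called, URA10 (0.42) and URA6 (-0.25) with array weights, and 24 had the opposite sign. None of the 80 differences from single omissions was called. Of 399 differences of the other named genes 11 were called, 9 with array weights and 2 with Kir2.1 replicate 2 and vector control replicate 1 both left out. The count of 0 genes called over the whole array rose to 1735 with array weights, to 508 with Kir2.1 replicate 2 and vector control replicate 1 both left out, and to 1 on the untransformed scores. With those 2 arrays left out, Kir2.1 replicates 1 and 3, with high iron genes, remain, and no vector control array of that kind does. The part of the iron genes in these counts was not tested. The median of the other pyrimidine genes was -0.14 with no centring, -0.13 with array weights and -0.12 without those 2 arrays. The replicate block left 0 genes called and gave URA3 the same difference of 0.09 (limma adjusted p = 0.808). Same-numbered arrays deviated together for numbers 1, 2 and 4 (correlations 0.81, 0.69 and 0.39) but not for number 3 (-0.66), so the numbers were not taken to pair the cultures. The 4 arrays per group limit what could be detected, and PPR1 lies near the background. The cause of each change of sign below was not tested.

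With no centring the differences were -0.0010 for URA2, -0.029 for URA5, -0.040 for URA3, -0.079 for URH1, -0.049 for FCY2, -0.065 for FUN26, -0.048 for LEU2 and -0.13 for ADE2. Centring on the 75th percentile gave -0.041 for ADE2. Quantile normalization gave -0.011 for URA5, -0.026 for URA3, -0.022 for FCY2 and -0.037 for LEU2. On the untransformed scores, in score units, they were -0.051 for URA5, -0.042 for URA3, -0.020 for URH1, -0.074 for FCY2, -0.014 for FUN26, -0.069 for LEU2 and -0.010 for ADE2. Array weights gave -0.050 for URA1, -0.059 for URA5 and -0.13 for FCY2. Without the 3 arrays with high iron genes they were -0.096 for URA3, 0.10 for FUR4, 0.13 for FUR1, 0.15 for FUI1, 0.041 for CYC1, 0.070 for HIS3, -0.12 for ADE2 and 0.16 for TIM9. With Kir2.1 replicate 2 and vector control replicate 1 both left out they were -0.093 for URA1, -0.037 for URA5, -0.071 for URA3, -0.033 for URH1, -0.10 for FCY2 and -0.0049 for LEU2. Over the single omissions the differences that changed sign ran from -0.13 to 0.070 for FUR4, -0.18 to 0.12 for FUR1, -0.16 to 0.063 for PPR1, -0.25 to 0.0038 for URK1, -0.0068 to 0.087 for URH1, -0.28 to 0.080 for FUI1, -0.023 to 0.14 for FCY2, -0.13 to 0.035 for HIS3, -0.081 to 0.083 for ADE2 and -0.23 to 0.057 for TIM9.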
